A study of Mus musculus with 6 samples.

Results

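The genes described here are 42 markers and regulators of liver endothelium, a list of sinusoidal, pan-endothelial and angiocrine genes chosen by name and not by their values. All 42 had a probe set paired with one gene symbol. Where a gene had several, the brightest by its mean over the 6 arrays was used. The array covered 18193 genes in all. The samples were livers of male C57BL/6 mice at 6 weeks of age, 1 mouse per array. KO 1 to KO 3 carried a conditional liver knockout of p14, and WT 1 to WT 3 were control mice of p14 WT genotype. p14 is the product of Lamtor2, a scaffold protein of late endosomes. The sources used here do not give the driver of the deletion, the liver cells it reached or any alleles carried by the controls, so whether the endothelial cells themselves lost p14 is not known.

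Liver sinusoids are lined by a thin, fenestrated endothelium that lacks an ordinary basement membrane. Its cells take up hyaluronan, collagen fragments, immune complexes and other waste from the blood through scavenger receptors. They also send angiocrine signals to hepatocytes, where Wnt2 with Rspo3 maintains the gene programme around the central vein and Bmp2 controls hepcidin. Endothelial cells of larger vessels share the junction proteins and growth factor receptors but carry few of the sinusoidal markers.

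On each array 54.6% to 55.6% of genes had a log2 value of at least 4, the level counted here as above background. Lamtor2, the targeted gene, measured 10.08, 10.19 and 10.11 in KO livers, against 11.32, 11.29 and 11.35 in WT livers (log2), without overlap, a difference of -1.19 (limma adjusted p = 0.0104). With KO 2, WT 1, WT 2 or WT 3 left out in turn its limma adjusted p was 0.0691, 0.114, 0.114 and 0.0505. On the first principal component, with 49.5% of the variance, KO 3 lay at -2.58, between KO 1 and KO 2 at -30.39 and -22.27 and the WT arrays at 14.19 to 21.55. WT 2 alone held skeletal muscle transcripts, with Mylpf, a fast-fibre myosin light chain, at 12.41 against 3.92 to 4.15 elsewhere. Results are therefore also given below without these arrays.

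The 3 genes used to check the cell type were clearly present in every liver. Stab2, the hyaluronan-clearing scavenger receptor of sinusoidal endothelium, measured 10.38, 10.63 and 10.88 in KO livers, against 10.82, 10.89 and 11.17 in WT livers. Lyve1, a hyaluronan receptor of sinusoidal and lymphatic endothelium, measured 7.38, 7.30 and 7.64 in KO livers, against 8.82, 8.64 and 8.82 in WT livers. Pecam1, the adhesion molecule CD31 of all endothelium, which leukocytes and platelets also carry, measured 5.57, 6.81 and 6.97 in KO livers, against 7.20, 7.20 and 7.53 in WT livers. Only Stab2 had KO and WT arrays that overlapped.

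Most of the endothelial genes lay somewhat lower in KO livers, and 1 of them changed at the threshold. Genes reaching 4 on the log2 scale on 3 or more arrays were tested, 10009 in all, and the threshold for a call was a limma p under 0.05 after Benjamini-Hochberg adjustment over all of them. Of the 42 genes 40 were kept, all 40 at that level on every array (4.60 to 11.76), and Cd34 and Dll4 were set aside. Lyve1 fell, and 0 of the others were called, so 1 of 40 was called as lower, beside 0.150% of all genes kept called as lower and 0.170% in either direction. In 35 of the 40 the KO mean was the lower one, beside 58.4% of all genes. An unadjusted p under 0.05 with a lower KO mean was found for 18 of 40, or 45.0%, beside 10.1% of all genes, and with a higher KO mean for 1, Nrp1, beside 4.32%. The groups did not overlap for 21 of 40, beside 20.5% of all genes. In 20 of these 21 the KO arrays were the lower ones, as they were in 1400 of the 10009 genes, and Nrp1 was the exception. The median difference, KO minus WT, was -0.30 over the 40 genes and -0.04 over all genes kept. Without both KO 3 and WT 2, an unadjusted p under 0.05 with a lower KO mean was found for 15 of 40, beside 11.4% of all genes. With 1 array left out it was found for 12 to 21. No share over all genes is given here for those fits, so that range cannot be weighed against one. The shares describe the list and were not tested. In whole liver, fewer endothelial cells and less RNA per endothelial cell cannot be told apart.

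**Figure D1:**
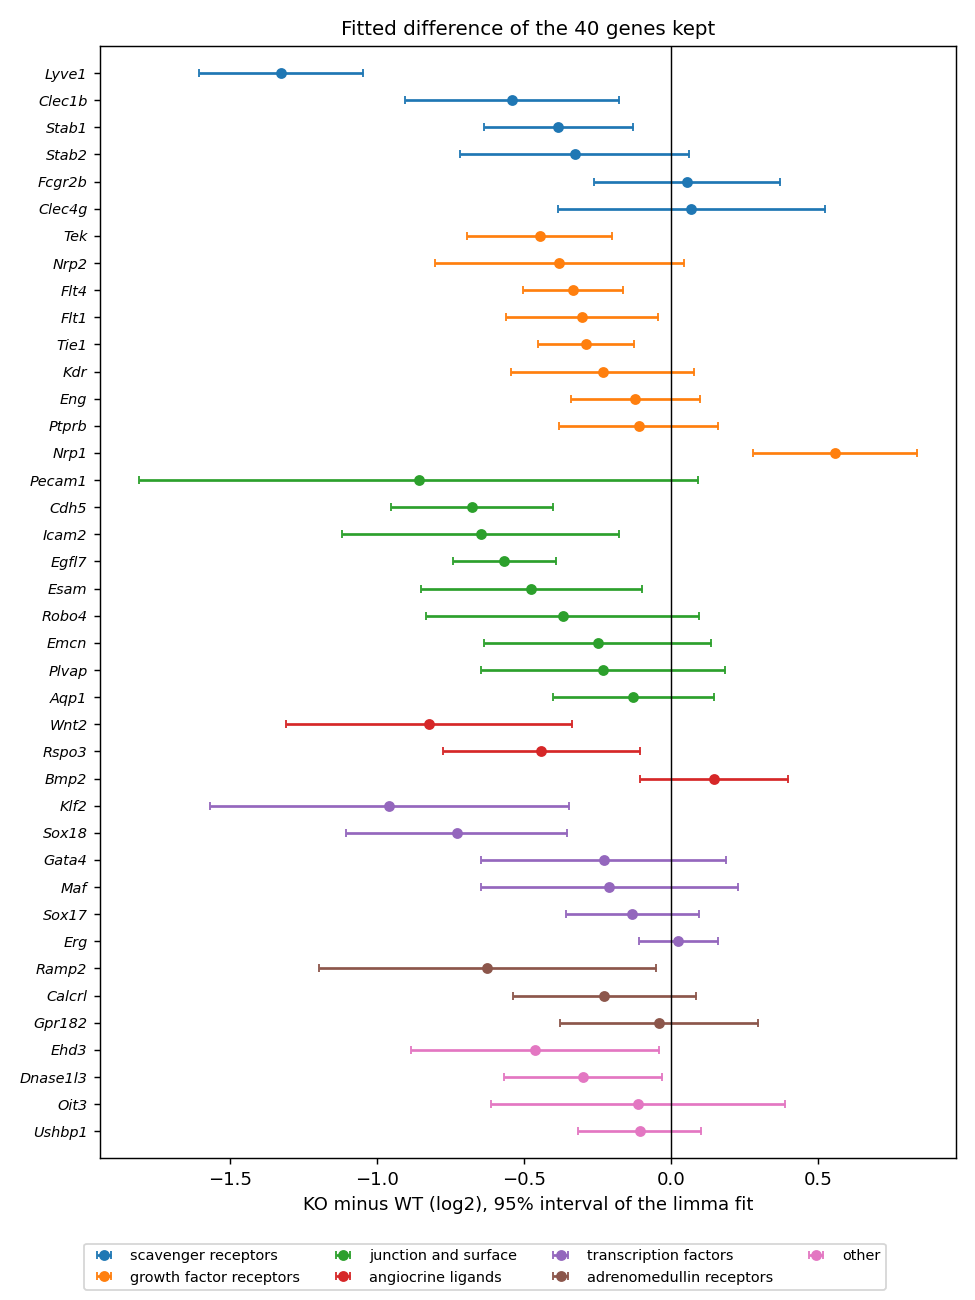
Fitted difference in log2 expression, KO minus WT, for the 40 endothelial genes kept, grouped by role; points are the limma estimates from 3 KO and 3 WT arrays and bars their 95% intervals. Lyve1 lies furthest to the left at -1.32, Nrp1 is furthest to the right at 0.56, and the intervals of 21 genes include 0.

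Among the scavenger and clearance receptors the differences were uneven, with Lyve1 furthest from 0 and a pair of abundant receptors near 0. Lyve1 averaged 7.44 ± 0.18 in KO and 8.76 ± 0.10 in WT livers (log2, SD, n = 3 each), which puts the KO signal at 39.9% of WT. The difference was -1.32 with a standard error of 0.11 (limma adjusted p = 0.0353), and it was the only one of the 40 of at least 2-fold. A further probe set of Lyve1 measured 6.87, 6.57 and 6.64 in KO livers and 8.34, 7.72 and 7.90 in WT livers, again without overlap, and was not called when every probe set was tested on its own (limma adjusted p = 0.130). The call depended on the arrays and genes included. With no filter on dim genes, which put 18193 genes into the test, its limma adjusted p was 0.169. With KO 1, KO 2, WT 1, WT 2 or WT 3 left out in turn, the difference was -1.29, -1.25, -1.30, -1.38 and -1.29, and the limma adjusted p was 0.170, 0.150, 0.202, 0.129 and 0.150. Without KO 3 the difference was -1.42 and the limma adjusted p 0.0169, and without both KO 3 and WT 2 they were -1.48 and 0.0806.

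Clec1b, the C-type lectin CLEC-2 that binds podoplanin and is also made by platelets, measured 8.27, 8.51 and 8.81 in KO livers, against 9.16, 9.06 and 8.99 in WT livers. Its arrays did not overlap, and the difference was -0.54 with a standard error of 0.15 (limma adjusted p = 0.25). Stab1, the scavenger receptor stabilin-1, shared with some macrophages, measured 8.15, 8.29 and 8.20 in KO livers, against 8.69, 8.41 and 8.69 in WT livers. It too was separated by group, by -0.38 (standard error 0.10, limma adjusted p = 0.25). Stab2 differed by -0.33 (95% interval -0.72 to 0.06).

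Fcgr2b and Clec4g showed no such separation. Fcgr2b, the inhibitory Fc receptor through which sinusoidal cells clear immune complexes and which B cells and macrophages carry as well, measured 10.77, 10.98 and 11.10 in KO livers, against 10.72, 11.07 and 10.89 in WT livers. The fitted difference was 0.06 with a standard error of 0.13 (95% interval -0.26 to 0.37, limma adjusted p = 0.846). Clec4g, the lectin LSECtin of sinusoidal endothelium, measured 11.30, 11.35 and 11.76 in KO livers, against 11.43, 11.12 and 11.65 in WT livers, a difference of 0.07 with a 95% interval of -0.38 to 0.52. Both intervals exclude the difference of -1.32 seen for Lyve1, as do those of all other endothelial genes kept but Pecam1 and Klf2. Lyve1 had the largest difference of the 40 endothelial genes kept, and no gene was tested against it. Within each array, Lyve1 minus the mean of the other 15 sinusoidal genes was -1.47, -1.82 and -1.59 in KO livers and -0.47, -0.63 and -0.59 in WT livers, a lowering of Lyve1 relative to its neighbours on all 3 KO arrays. The median difference of those 15 genes was -0.30. This contrast was made because Lyve1 was already known to differ, and was not tested.

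**Figure D2:**
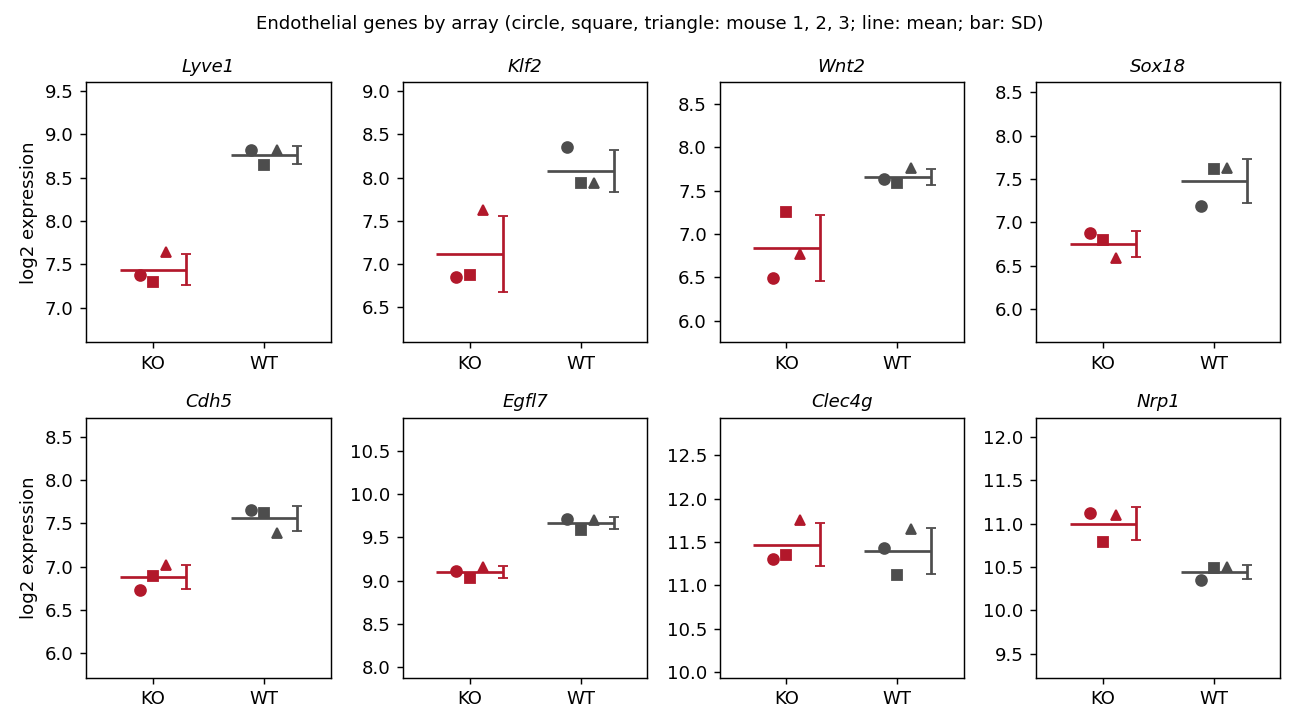
Log2 expression of 8 endothelial genes on each array, KO left and WT right; symbols are mice, lines group means and bars SD (n = 3 each), with every panel spanning 3 log2 units. Lyve1, Klf2, Wnt2, Sox18, Cdh5 and Egfl7 have all KO values below all WT values, Clec4g overlaps, and Nrp1 has all KO values above.

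Receptors for vascular growth factors were slightly lower in KO livers apart from Nrp1. Of 9 receptors and co-receptors 8 had a negative difference, 0 were called and the median was -0.29. Tek, the angiopoietin receptor Tie2, measured 7.90, 7.88 and 8.10 in KO livers, against 8.37, 8.30 and 8.54 in WT livers. It was separated by group, with a difference of -0.45 and a standard error of 0.10 (limma adjusted p = 0.206). Tie1, its orphan partner, measured 5.89, 5.95 and 6.01 in KO livers, against 6.27, 6.18 and 6.28 in WT livers, also without overlap, a difference of -0.29 with a standard error of 0.07 (limma adjusted p = 0.216). Quantile normalisation gave -0.16 for Tie1. Ptprb, the phosphatase VE-PTP that restrains Tek, overlapped at 10.34, 10.73 and 10.56 in KO livers, against 10.64, 10.62 and 10.69 in WT livers, with a difference of -0.11 (standard error 0.11, limma adjusted p = 0.648).

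The VEGF receptors lay close together in size of difference. Flt4, the receptor of VEGF-C, which sinusoidal and lymphatic endothelium share, measured 8.93, 9.01 and 9.11 in KO livers, against 9.34, 9.33 and 9.38 in WT livers. The KO arrays were all lower, by -0.33 on average with a standard error of 0.07 (limma adjusted p = 0.194). A further Flt4 probe set differed by -0.25, and its groups overlapped. Flt1, a VEGF receptor that also acts as a decoy, measured 5.73, 6.01 and 5.97 in KO livers, against 6.17, 6.11 and 6.32 in WT livers, separated by -0.30 with a standard error of 0.10 (limma adjusted p = 0.305). For Flt1, quantile normalisation gave -0.19. Kdr, the main signalling receptor of VEGF-A, averaged 9.57 in KO and 9.80 in WT livers, and its arrays were separated only narrowly, with a 95% interval of -0.54 to 0.08. Eng, the co-receptor endoglin of the TGF-beta family, averaged 9.30 in KO and 9.42 in WT livers and overlapped.

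The neuropilins, co-receptors of VEGF and semaphorins, had differences of opposite sign. Nrp1 measured 11.12, 10.78 and 11.10 in KO livers, against 10.35, 10.48 and 10.50 in WT livers, with every KO array higher, a difference of 0.56 with a standard error of 0.11 (95% interval 0.28 to 0.84, limma adjusted p = 0.194). It did not pass the threshold, nor under any of the 17 alternatives, whose limma adjusted p ran from 0.143 to 0.463. Its further probe sets differed by 0.25, 0.28 and -0.26, so the dimmest of them pointed the other way, and the mean of all Nrp1 probe sets gave 0.21. Nrp1 is also made by stellate cells and some immune cells. Nrp2, typical of veins and lymphatics, averaged 7.25 in KO and 7.63 in WT livers and overlapped, with a 95% interval of -0.80 to 0.04.

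Junction and surface proteins were lower in KO livers for all 9 genes kept, with a median of -0.47 and 0 called. Cdh5, the VE-cadherin of endothelial adherens junctions, measured 6.73, 6.89 and 7.02 in KO livers, against 7.66, 7.62 and 7.39 in WT livers. Its groups were well apart, with a difference of -0.68 and a standard error of 0.11 (limma adjusted p = 0.136). The mean of all its probe sets gave -0.34, but the further Cdh5 probe set lay near background (mean 2.33 in KO and 2.33 in WT livers). That mean is therefore no second measure of the difference. Egfl7, a secreted protein of endothelial cells, measured 9.11, 9.03 and 9.16 in KO livers, against 9.71, 9.58 and 9.70 in WT livers, a difference of -0.57 with a standard error of 0.07 (limma adjusted p = 0.0888), the smallest adjusted p of the 40 after that of Lyve1. Its further probe sets differed by -0.48, -0.42 and -0.09. Pecam1 differed by -0.86 with a standard error of 0.38 (limma adjusted p = 0.369). That value leaned on KO 1, at 5.57, and was -0.42 without KO 1.

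Icam2, a ligand of leukocyte integrins, measured 5.99, 6.35 and 6.59 in KO livers, against 6.69, 7.08 and 7.09 in WT livers. It was lower on every KO array, by -0.65 on average with a standard error of 0.19 (limma adjusted p = 0.27). Esam, a tight junction molecule of endothelium and platelets, measured 7.72, 7.69 and 8.14 in KO livers, against 8.15, 8.37 and 8.45 in WT livers, separated by a very small gap, with a difference of -0.47 and a standard error of 0.15 (limma adjusted p = 0.294). Robo4, a stabilising receptor of endothelium, averaged 6.78 in KO and 7.15 in WT livers, with its arrays apart. Emcn, the sialomucin endomucin, averaged 5.55 in KO and 5.80 in WT livers, and Plvap, which forms the diaphragms of fenestrae and caveolae in other vascular beds, averaged 10.06 in KO and 10.29 in WT livers; both overlapped. Aqp1, a water channel of endothelium, bile ducts and red cells, measured 10.36, 10.57 and 10.52 in KO livers, against 10.62, 10.44 and 10.78 in WT livers, a difference of -0.13 with a standard error of 0.11 (limma adjusted p = 0.597). Cd34, a sialomucin of continuous endothelium, lay near background at 2.46, 2.49 and 2.52 in KO livers, against 2.52, 3.57 and 2.52 in WT livers, so no difference is given.

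Of the angiocrine ligands, the Wnt pathway pair was lower in KO livers and Bmp2 was not. Wnt2 measured 6.50, 7.25 and 6.77 in KO livers, against 7.64, 7.58 and 7.76 in WT livers, with every KO array lower, a difference of -0.82 with a standard error of 0.20 (limma adjusted p = 0.226). Rspo3, the R-spondin that amplifies Wnt signals and is also made by stellate cells, measured 5.68, 5.66 and 5.91 in KO livers, against 6.02, 6.11 and 6.43 in WT livers. The groups did not overlap, and the difference was -0.44 with a standard error of 0.13 (limma adjusted p = 0.285). Averaged over its probe sets it was -0.22, but the further Rspo3 probe set lay at the lowest value, 2.185, on every array. That average is therefore no second measure of the difference. Bmp2, the endothelial inducer of hepcidin, measured 8.98, 9.18 and 9.18 in KO livers, against 9.09, 9.001 and 8.82 in WT livers, a difference of 0.15 with a standard error of 0.10 (95% interval -0.10 to 0.40, limma adjusted p = 0.517). Dll4, a Notch ligand of arterial and sprouting endothelium, lay near background at 3.92, 3.82 and 3.96 in KO livers, against 3.81, 3.72 and 4.08 in WT livers.

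Genes known to respond to these ligands in hepatocytes were measured in the same livers. Whole liver does not show which cells their signal came from. Of 14 kept targets of Wnt2, Wnt9b and Rspo3, 12 were lower in KO livers, beside 58.4% of all genes. Their median was -0.29 and 0 were called. Axin2, the general feedback inhibitor of the Wnt pathway, measured 5.58, 4.95 and 4.91 in KO livers, against 6.83, 6.67 and 6.33 in WT livers, a difference of -1.46 (limma adjusted p = 0.129), and Tbx3, a pericentral transcription factor, differed by -0.91 (limma adjusted p = 0.29). Glul, the glutamine synthetase of the innermost pericentral hepatocytes, chosen after its values were seen, differed by only -0.13. Of 7 kept targets of Bmp2 and Bmp6, 4 were lower, with a median of -0.22 and 0 called. Id1, a direct BMP target, measured 7.44, 7.59 and 6.54 in KO livers, against 8.77, 8.15 and 7.93 in WT livers, a difference of -1.09 (limma adjusted p = 0.29), and Id3 differed by -0.44 (limma adjusted p = 0.378). Hamp, which encodes hepcidin and was chosen after its values were seen, averaged 15.02 in KO and 14.74 in WT livers and overlapped. Whether the ligands and these genes are linked in these livers was not tested.

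On the probe sets used, endothelial transcription factors split between Klf2 and Sox18, which were lower, and the others, which overlapped. Klf2, the factor induced by laminar flow and also active in lymphocytes and macrophages, measured 6.86, 6.88 and 7.63 in KO livers, against 8.35, 7.94 and 7.93 in WT livers. All KO arrays were lower, by -0.96 on average with a standard error of 0.25 (limma adjusted p = 0.243), and KO 3 lay nearest to the WT arrays. Sox18, a SOX factor of vascular and lymphatic development, measured 6.87, 6.79 and 6.58 in KO livers, against 7.18, 7.62 and 7.63 in WT livers, a difference of -0.73 with a standard error of 0.15 (limma adjusted p = 0.197). Its relative Sox17, an arterial factor, averaged only 4.71 in KO and 4.84 in WT livers. Gata4, which directs sinusoidal identity and is also present in stellate cells, averaged 6.92 in KO and 7.15 in WT livers. Maf, a factor of sinusoidal cells and macrophages, averaged 11.33 in KO and 11.54 in WT livers. The brightest further Maf probe set differed by -0.30, with every KO array lower. It was not called when every probe set was tested on its own (limma adjusted p = 0.313). The dimmer Maf probe sets past the filter differed by -0.25, 0.04 and -0.18, and their groups overlapped. Erg, an ETS factor of all endothelium, measured 6.06, 6.03 and 6.02 in KO livers, against 6.02, 5.99 and 6.02 in WT livers, a difference of 0.03 with a standard error of 0.05 (limma adjusted p = 0.835). Several of its arrays shared one value, so this probe set resolved little.

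Promoter sequence is shown for 4 genes, none of which was called. Klf2, Wnt2 and Egfl7 are the 3 with the lowest difference among those with an unadjusted p under 0.05 and an entry in the RefSeq promoter table used. Nrp1 is shown because it went the other way. The table held 25 of the 42 genes and lacked Lyve1, the endothelial gene called. Each line gives the 250 bases before the first start listed, 5′ to 3′ on the strand of the gene, from RefSeq in build GRCm38.p6. Capitals mark words searched on both strands: AGGAAG and CGGAAG for ETS factors such as Erg, AGATAA and TGATAA for GATA factors, ACAAAG and ACAATG for SOX factors, and CCACCC for KLF factors. None of these words contains another.
Klf2 (chr8:72318812-72319061, plus strand): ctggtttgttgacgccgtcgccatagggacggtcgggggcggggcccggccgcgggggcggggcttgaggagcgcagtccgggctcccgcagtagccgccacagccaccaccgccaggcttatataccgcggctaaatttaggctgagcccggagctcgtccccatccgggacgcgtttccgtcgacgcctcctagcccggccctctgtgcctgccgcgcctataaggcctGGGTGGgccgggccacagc
Wnt2 (chr6:18030446-18030695, minus strand): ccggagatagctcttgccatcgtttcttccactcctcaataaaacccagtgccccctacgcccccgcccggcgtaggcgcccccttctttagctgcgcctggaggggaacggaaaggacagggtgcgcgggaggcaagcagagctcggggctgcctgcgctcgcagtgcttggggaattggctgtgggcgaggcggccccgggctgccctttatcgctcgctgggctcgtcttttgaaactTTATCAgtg
Egfl7 (chr2:26580833-26581082, plus strand): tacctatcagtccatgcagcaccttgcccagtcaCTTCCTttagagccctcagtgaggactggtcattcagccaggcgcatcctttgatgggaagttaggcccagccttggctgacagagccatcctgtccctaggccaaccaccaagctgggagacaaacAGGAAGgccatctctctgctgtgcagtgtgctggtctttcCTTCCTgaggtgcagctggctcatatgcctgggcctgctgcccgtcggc
Nrp1 (chr8:128358823-128359072, plus strand): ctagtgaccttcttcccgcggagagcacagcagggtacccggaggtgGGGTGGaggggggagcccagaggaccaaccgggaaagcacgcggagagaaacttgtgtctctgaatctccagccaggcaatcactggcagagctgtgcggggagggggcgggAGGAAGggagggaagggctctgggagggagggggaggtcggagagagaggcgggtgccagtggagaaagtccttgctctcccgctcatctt
The window of Egfl7 held 3 ETS words, beginning 216, 89 and 49 bases before the start, and none of the other words. That of Nrp1 held 1 ETS word, 91 bases before the start, and 1 KLF word at 203. Klf2 had 1 KLF word at 19 bases and Wnt2 had 1 GATA word at 9. Over the promoters of all 27025 genes in the table the ETS words occurred in 39.0%, the KLF word in 27.7%, the SOX words in 25.5% and the GATA words in 17.0%. In the 25 endothelial promoters they occurred in 14, 10, 6 and 2, and the share with an ETS word was 56.0%. A match describes the letters and does not show binding.

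In the role group of Ramp2, Calcrl and Gpr182, the difference was most negative for Ramp2. Ramp2, the partner that turns Calcrl into an adrenomedullin receptor, measured 6.97, 7.23 and 7.82 in KO livers, against 7.79, 7.98 and 8.12 in WT livers. KO 1 and KO 2 were low while KO 3 lay among the WT arrays, and the difference was -0.62 with a standard error of 0.23 (limma adjusted p = 0.327). Calcrl itself averaged 8.63 in KO and 8.85 in WT livers and overlapped. Gpr182, an atypical chemokine receptor of sinusoidal endothelium, measured 8.55, 8.81 and 8.98 in KO livers, against 8.80, 8.68 and 8.97 in WT livers, a difference of -0.04 with a standard error of 0.14 (95% interval -0.38 to 0.30, limma adjusted p = 0.902).

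The remaining 4 genes are mainly sinusoidal products. Ehd3, a membrane-trafficking ATPase of the endocytic pathway, measured 10.10, 10.74 and 10.57 in KO livers, against 10.91, 10.89 and 10.99 in WT livers, without overlap, a difference of -0.46 with a standard error of 0.17 (limma adjusted p = 0.325). Without KO 1 the difference was -0.28. A further Ehd3 probe set measured 9.19, 9.41 and 9.40 in KO livers and 10.01, 9.76 and 9.98 in WT livers. Dnase1l3, a secreted DNase that macrophages make too, measured 8.73, 8.96 and 8.81 in KO livers, against 9.11, 8.99 and 9.30 in WT livers, separated by -0.30 with a standard error of 0.11 (limma adjusted p = 0.321). A further Dnase1l3 probe set differed by -0.22, and its groups overlapped. Oit3, a secreted protein, averaged 9.13 in KO and 9.24 in WT livers and overlapped. Ushbp1 measured 6.81, 6.71 and 6.81 in KO livers, against 6.80, 7.02 and 6.82 in WT livers, a difference of -0.11 with a standard error of 0.08 (limma adjusted p = 0.567).

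The 16 sinusoidal genes had a median of -0.31, with 13 lower, and the 24 pan-endothelial genes kept had a median of -0.29, with 22 lower. KO arrays lay below all WT arrays for 8 of the sinusoidal and 12 of the pan-endothelial genes, as they did for 1400 of all 10009 genes; 20.5% of all genes did not overlap in either direction. The difference between these lists was not tested.

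The KO mice differed among themselves. KO 1 had the lowest KO value for 28 of the 40 genes and KO 3 the highest for 24. Against all WT arrays, KO 1 was lower for 33 genes, KO 2 for 26 and KO 3 for 23. The median deviation from the WT mean was -0.49 on KO 1, -0.23 on KO 2 and -0.16 on KO 3. Without KO 1 the median difference of the 40 genes was -0.21, with 33 lower, and without both KO 3 and WT 2 it was -0.37, with 36 lower. Of 22 further probe sets past the filter, from 12 genes, 18 pointed the same way as the probe set used and 4 the other way.

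**Figure D3:**
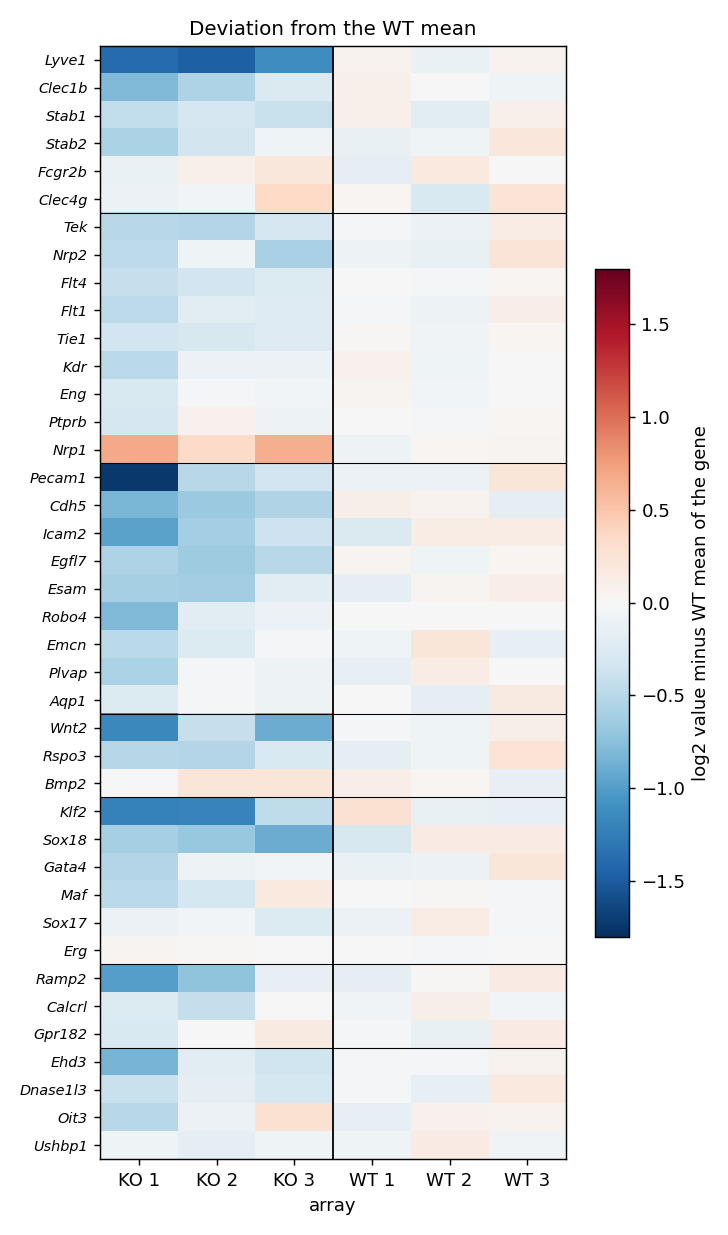
Log2 value of each of the 40 genes minus its WT mean (colour), by array, KO left and WT right of the line, with genes ordered by role and horizontal lines between roles. KO 1 holds the lowest KO value for 28 genes, Lyve1 is low on all 3 KO arrays, and Nrp1 is high on all 3.

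A further list held ligands, partners and modulators of endothelial signalling, some of them made by hepatocytes or stellate cells. Of its 52 genes 38 were kept, 34 of them lower in KO livers, beside 58.4% of all genes. The median was -0.32, with a range of -1.42 to 0.16. Thbd, the endothelial anticoagulant thrombomodulin, measured 4.97, 5.01 and 5.11 in KO livers, against 6.09, 5.87 and 5.97 in WT livers and fell by 0.95 (limma adjusted p = 0.0353). It was the 1 gene of the 38 called, beside 0.150% of all genes kept called as lower. Leaving out KO 1 gave a limma adjusted p of 0.170, leaving out KO 2 gave 0.171, and dropping WT 1, WT 2 or WT 3 in turn gave 0.160, 0.129 and 0.150; the call held when KO 3 was dropped (limma adjusted p = 0.0324). With no filter on dim genes it was 0.148. Klf4, a flow-responsive factor related to Klf2, measured 3.70, 3.81 and 3.62 in KO livers, against 4.70, 5.73 and 4.96 in WT livers, with all KO arrays below the level of 4 (limma adjusted p = 0.178). The low end of the range above, -1.42, is that of Klf4, so its size cannot be read.

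Markers of other liver cells were measured on the same arrays. All 18 Kupffer cell and macrophage markers were lower in KO livers, with a median of -0.86 and 0 called, and Lyz2, a lysozyme of myeloid cells, and Cybb, a subunit of the phagocyte oxidase, differed by -1.13 and -0.90 (limma adjusted p = 0.194 and 0.202). Of 15 stellate cell and fibroblast markers 14 were lower, with a median of -0.37 and 0 called. Beside these counts, 58.4% of all genes kept were lower. The stellate list had its highest median deviation from the WT mean on WT 2, the array with skeletal muscle transcripts. It was 0.19 there, against -0.12 on WT 1 and -0.04 on WT 3. No difference without WT 2 is given for this list. Sparc, a matrix glycoprotein also made by endothelium, differed by -0.54 (limma adjusted p = 0.0872) and Ecm1 by -0.36 (limma adjusted p = 0.27). The 14 hepatocyte markers had a median of 0.01, 7 lower and 7 higher, with Hpx, the haem carrier hemopexin, at 0.19 and G6pc, of glucose release, at 1.24 (limma adjusted p = 0.298 and 0.304). Too few markers of lymphocytes (4 of 15 kept), bile ducts (1 of 8), platelets (1 of 5) and red cells (1 of 5) were measured to describe those cells.

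Most markers of dividing cells passed the filter only through the WT arrays. Of the 10 kept, 7 lay below the level of 4 on at least 1 KO array, 4 of them on every KO array, so the size of their differences cannot be read. The fit called Aurka, Kif20a, Nuf2 and Top2a, which all belong to these 7, as lower. Because the filter admitted these 4 through their WT values, their calls cannot be weighed against the 0.150% of all genes called as lower. Aurka, a mitotic kinase, measured 2.66, 2.76 and 2.66 in KO livers, against 4.96, 4.97 and 5.11 in WT livers (limma adjusted p = 0.00114), and kept its call with any 1 array left out but not without both KO 3 and WT 2 (limma adjusted p = 0.0600). Kif20a, Nuf2 and Top2a were not called without KO 2, WT 1, WT 2 or WT 3, where their limma adjusted p ran from 0.0778 to 0.226, nor with no filter. Nuf2 and Top2a were also lost without KO 1, at a limma adjusted p of 0.211 and 0.105. The 3 markers at the level on every array, Mki67, Cdk1 and Cdc20, differed by -3.27, -2.01 and -3.32 (limma adjusted p = 0.116, 0.167 and 0.204).

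By array, the median deviation of the Kupffer markers from the WT mean was -1.29, -1.07 and -0.28 in KO livers and -0.03, 0.08 and -0.06 in WT livers. For the stellate markers it was -0.61, -0.33 and -0.18 in KO livers and -0.12, 0.19 and -0.04 in WT livers. KO 1 was thus the lowest and KO 3 the nearest to WT in these lists as in the endothelial one. Signal of the 18S rRNA controls was 9.25, 9.12 and 8.50 in KO livers and 8.24, 8.44 and 7.77 in WT livers, 0.80 higher in KO (exact two-sided permutation p = 0.1, the smallest possible with 3 against 3 arrays). The pyruvate carboxylase 3 prime minus 5 prime measure of RNA integrity was 3.58, 3.52 and 3.54 in KO livers and 4.65, 3.99 and 4.85 in WT livers, without overlap (exact two-sided permutation p = 0.1). The same measure overlapped for Gapdh and for beta-actin, which differed by -0.062 and -0.14 (exact two-sided permutation p = 0.3 for each). The part of these cell types, of dividing cells and of the RNA measures in the endothelial differences was not tested.

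**Figure D4:**
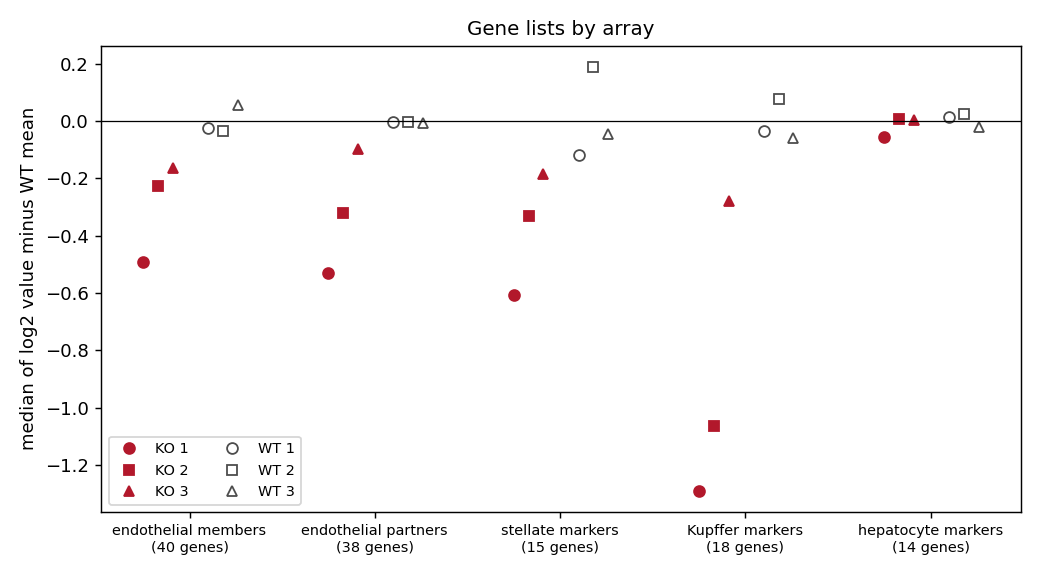
Median over the genes of a list of the log2 value minus the gene's WT mean, for each array (filled: KO, open: WT; symbols are mice 1 to 3). Endothelial, stellate and Kupffer lists are lowest on KO 1, and the hepatocyte markers lie within 0.06 of 0 on every array.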

How the data were processed

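The values used are the deposited log2 expression levels per probe set of an Affymetrix mouse array, for which the submitters' processing notes name GCRMA 2.16.0, run in R 2.9.1 by the authors. GCRMA corrects background from probe sequence and normalises across arrays, which pulls dim probe sets to shared low values: 28.9% of values lay at the lowest, 2.185. The log2 scale was inferred from the range of 2.185 to 16.327. Depth has no meaning here, and the 3 arrays per group limit the precision.

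Probe sets with several symbols (932) or none listed (9160) named no gene. The test of KO against WT used lmFit and eBayes of limma 3.58.1 (R 4.3.3, two-sided, no covariates) over all 10009 genes kept, with Benjamini-Hochberg adjustment. Every one of the 42 genes is reported, and values by array are given for those called, those with an unadjusted p under 0.05 and the extremes of each role group. The genes, lists and tests were chosen with earlier results of these data known. Alternatives covered filter, floor, probe set choice, scaling, variance model, array weights, replicate block and left-out arrays. Figures used matplotlib 3.10.9.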

Additional observations from a re-analysis of the deposited data

How the results depend on the processing

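The median difference of the endothelial genes stayed below 0 under all 17 alternatives, between -0.37 and -0.21. The number of called genes was less stable. Over all genes it was 3 with no filter, 0 with the replicate number as a block, 1 to 140 with 1 array left out and 3 without KO 3 and WT 2 together, a choice made after seeing the data. For the endothelial genes it was 0 in the first, second and last of these and 0 or 1 with 1 array left out. In limma with the replicate block Lyve1 had an adjusted p of 0.116, and 19 endothelial genes and 909 of all genes were lower at an unadjusted p under 0.05. With no filter Lyve1 had a limma adjusted p of 0.169, with 18193 genes tested. In that fit 16 of 42 endothelial genes were lower at an unadjusted p under 0.05, beside 5.06% of all genes. The replicate numbers did not pair the mice: deviations of same-numbered arrays correlated at -0.086, -0.079 and -0.141, and 0 of 6 arrays correlated best with their own number. Lyve1 was called under 9 of the 17 alternatives and no other endothelial gene under any. Of 27 genes followed, 24 kept their direction throughout. Fcgr2b turned to -0.019 with the mean of its probe sets and lay between -0.031 and 0.145 with 1 array left out. Gpr182 turned to 0.015 with quantile normalisation and 0.028 with median centring, and lay between -0.14 and 0.076 with 1 array left out. Ushbp1 turned to 0.0018 with quantile normalisation. The cause of these changes was not tested. Differences of dim genes such as Cd34 and Dll4 cannot be read at this signal over background.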

Other observations

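A few further vascular genes, chosen after their values were seen, are given as values. S1pr1, the sphingosine 1-phosphate receptor that keeps vessels tight, measured 8.77, 8.79 and 9.27 in KO livers, against 9.60, 9.68 and 9.49 in WT livers (limma adjusted p = 0.224). Vwf, the von Willebrand factor of larger vessels, measured 6.22, 6.71 and 6.07 in KO livers, against 7.23, 6.79 and 7.004 in WT livers (limma adjusted p = 0.277). In the Notch pathway, Notch1 differed by -0.49 and its ligand Jag1 by -0.57 (limma adjusted p = 0.282 and 0.287). Gdf2, which encodes BMP9, a ligand of endoglin made by stellate cells, measured 8.17, 8.37 and 8.53 in KO livers, against 8.80, 8.68 and 8.77 in WT livers (limma adjusted p = 0.25). Vegfa, the growth factor that hepatocytes supply to sinusoidal endothelium, measured 10.29, 10.46 and 10.48 in KO livers, against 10.08, 10.41 and 10.27 in WT livers and overlapped (limma adjusted p = 0.518). In the first 5 of these every KO array lay below every WT array, and none was called. That count reflects how they were picked. Over the 38 kept genes of their list, KO arrays lay below all WT arrays for 14 and the groups overlapped for 24. Over all 10009 genes the KO arrays lay below all WT arrays for 1400.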
